A study of Mus musculus with 8 samples.

Results

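The ATP-binding cassette (ABC) transporter genes were taken as the protein-coding genes of GENCODE vM21 whose symbol begins with Abca, Abcb, Abcc, Abcd, Abce, Abcf or Abcg followed by a digit, and 50 of the 46517 genes listed in the count tables met this rule. They comprised 16 Abca, 10 Abcb, 10 Abcc, 4 Abcd, 1 Abce, 3 Abcf and 6 Abcg genes. The study profiled mRNA of whole mouse kidneys after loss of Xpr1, which encodes a phosphate exporter, in 4 conditional knockout (cKO) and 4 Control libraries. The cKO mice were Xpr1lox/lox/Pax8-rtTA/LC-1, in which Pax8-rtTA, a doxycycline-dependent activator made in kidney tubule cells, switches on the Cre recombinase of LC-1 to remove the floxed exon 2. Control mice were Xpr1lox/lox littermates without these transgenes. Both groups carried the floxed alleles and drank doxycycline (DOX) at 2 mg/ml for 2 weeks from 8 weeks of age, so the presence of rtTA and Cre and the loss of Xpr1 cannot be told apart. The labels name each library but do not say outright that each came from a different mouse, so p-values speak for the spread of these libraries, which may be technical.

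ABC proteins use ATP hydrolysis to move lipids, sterols, drugs, conjugates, porphyrins or peptides across membranes, and the 7 subfamilies follow the similarity of their nucleotide-binding domains. Most Abca, Abcb, Abcc and Abcg proteins sit in the plasma membrane or in intracellular membranes, Abcd proteins in peroxisomes and lysosomes, and Abce1 and the Abcf proteins have no membrane domain and act on ribosomes. In the kidney the proximal tubule secretes drugs, urate and organic anions through apical ABC pumps, after uptake carriers of the solute carrier families have brought them in across the basolateral membrane.

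The level of Xpr1 over all its exons, in CPM (a gene's reads relative to the library total, scaled by TMM factors), was 80.2, 126, 108 and 103 CPM in Control libraries C10, C11, C13 and C14, and 5.74, 26.5, 22.0 and 12.0 CPM in cKO libraries KO16, KO18, KO19 and KO20. All 4 cKO libraries lay far below all 4 Control libraries (log2 fold change -2.65, SE 0.44, adjusted p = 0.00491). The reads assigned to genes ran from 20366113 (KO16) to 26155030 (C13) per library. Libraries differed by transcript length within both groups. Against the Control mean, the 1 in 6 tested genes with the shortest exonic length stood at 0.96 (KO16) and 0.49 (KO20) on the log2 scale, but at -0.23 (KO18) and -0.14 (KO19), while C11 stood at -0.36. The 1 in 6 longest genes showed the opposite, from -0.90 in KO16 to 0.39 in C11. ABC genes are long: the tested members had a median exonic length of 6672.5 bases against 4152 for all tested genes. Their median level against the Control mean moved with this lean, at -0.33 (C10), 0.43 (C11), -0.04 (C13), -0.10 (C14), -0.68 (KO16), 0.23 (KO18), 0.09 (KO19) and -0.50 (KO20). C11 was the highest Control library in 27 of the 38 tested members, and KO20 or KO16 was the lowest cKO library in 21 and 15 of them. The part of this lean in each result was not tested beyond the fits described below, in which a length trend or these libraries were taken out.

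Per exonic length, the most abundant members in Control kidneys were Abcd3 and Abcg2. Abcd3, the peroxisomal membrane protein also called PMP70, stood at 68.5 ± 2.71 RPKM (CPM divided by the exonic length in kilobases; SD, n = 4). Abcg2, the apical drug and urate pump also called breast cancer resistance protein, stood at 66.4 ± 4.64 RPKM (SD, n = 4), so the order of these leading members lay within their spread. Next came Abcc2, an apical exporter of organic anion conjugates, at 37.4 ± 19.9 RPKM (SD, n = 4), and Abca3, a phospholipid transporter best known from lung surfactant, at 35.9 ± 40.6 RPKM (SD, n = 4). These means rest on wide spreads that overlap each other. Abce1, Abcf2, Abcf1, Abcf3 and Abcb8 were among those that followed, between 21.3 and 9.72 RPKM. In cKO kidneys the 3 leading members were Abcg2 (43.3 ± 6.39 RPKM), Abcd3 (31.4 ± 5.75 RPKM) and Abcc2 (24.8 ± 13 RPKM; SD, n = 4 each). Abca3 went from the fourth place in Control to the eighth in cKO kidneys, at 11.4 ± 7.33 RPKM (SD, n = 4). Its Control place was set by C11, since without that library, an alternative added after its values were seen, Abca3 stood at 15.7 ± 3.44 RPKM (SD, n = 3), below Abce1 and Abcf2. The same 10 members led the Control order when the longest annotated transcript replaced the union of exons, and without C11.

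**Figure D1:**
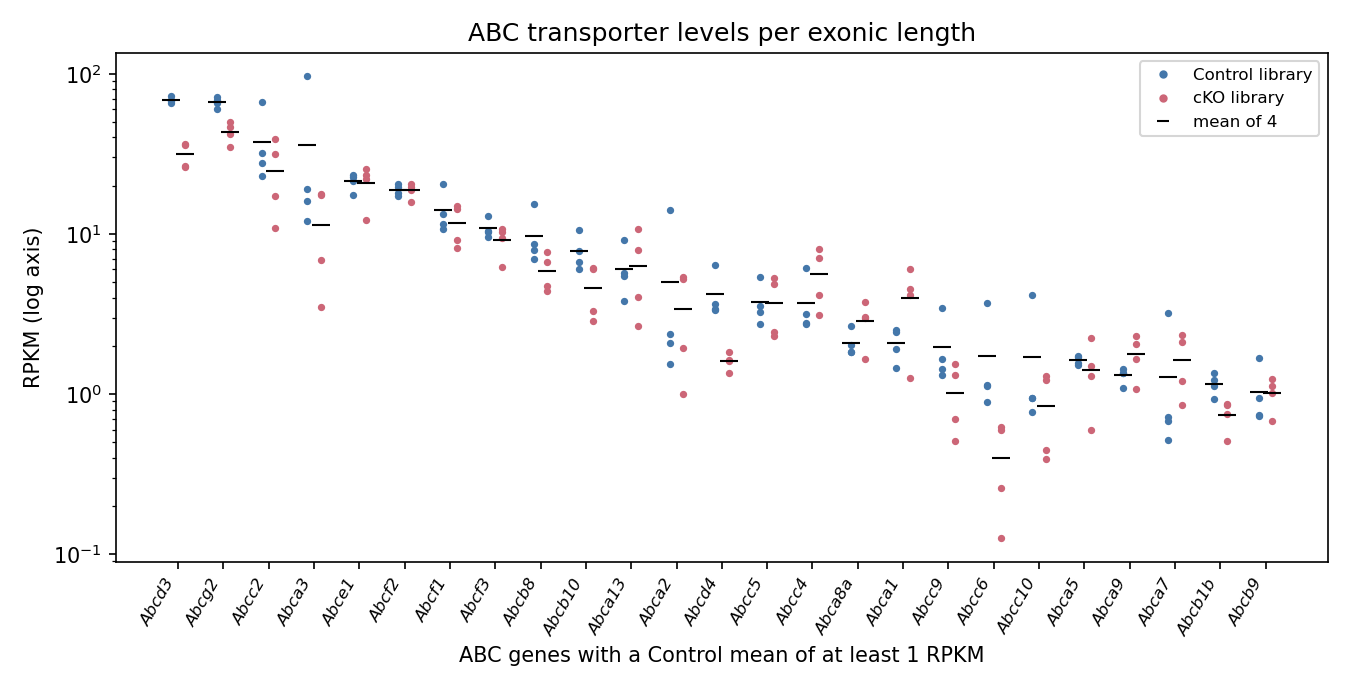
RPKM (log axis) of 25 of the 27 ABC genes with a Control mean of at least 1 RPKM, ordered by that mean, with a point for each library (blue Control, red cKO) and a bar for the mean of 4. Abcd3 and Abcg2 lead at 68.5 and 66.4 RPKM in Control kidneys with tight points, while Abcc2 and Abca3 carry an isolated high Control point.

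Of the 50 members, 38 passed the filter on low counts and were tested. By edgeR's quasi-likelihood test with Benjamini-Hochberg adjustment over all 15382 genes tested, Abcb4 and Abcc3 rose in cKO kidneys, Abcb6, Abcd3 and Abcd4 fell, and 33 members did not pass the threshold of 0.05. These 5 of 38 stand beside 14.1% of all tested genes (7.5% higher and 6.61% lower), and beside 8.24% of the 3652 tested genes at least as long as the median tested ABC gene, so the share is near the background. The 2 groups of 4 libraries did not overlap in CPM for 10 of the 38 members, against 22.8% of all tested genes. The median log2 fold change of the tested members was -0.22, against 0.01 for all tested genes. It was -0.05 without C11, -0.07 without KO16 and -0.09 without KO20, and its sign turned without KO16 and KO20 (0.10), without KO16, KO20 and C11 (0.32) and with library totals alone (0.14, where the median of all genes was 0.34). The count of higher members was 1 without C10, C13, C14 or KO19 and 5 without KO16, and the count of lower members stayed between 2 and 4 with any 1 library left out. The share of all tested genes that passed moved too. It was 9.09%, 7.02%, 7.6% and 11.1% without C10, C13, C14 and KO19, and 17.2% without KO16.

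By subfamily, the 4 Abcd genes had 2 lower and 2 not past the test (median log2 fold change -0.84), and the 8 tested Abcb genes had 1 higher, 1 lower and 6 not past it (median -0.68). The 8 tested Abcc genes had 1 higher and 7 not past the test (median -0.30). No member of the other subfamilies passed edgeR's test: of 11 tested Abca genes (median 0.36) 2 had an unadjusted p under 0.05, of 3 Abcg genes (median -0.53) 1 had, and of 1 Abce (median -0.04) and 3 Abcf genes (median -0.24) 0 had. For these subfamilies DESeq2 called 1 Abca gene, 1 Abcg gene and 0 Abce or Abcf genes, and limma-voom called 0.

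**Figure D2:**
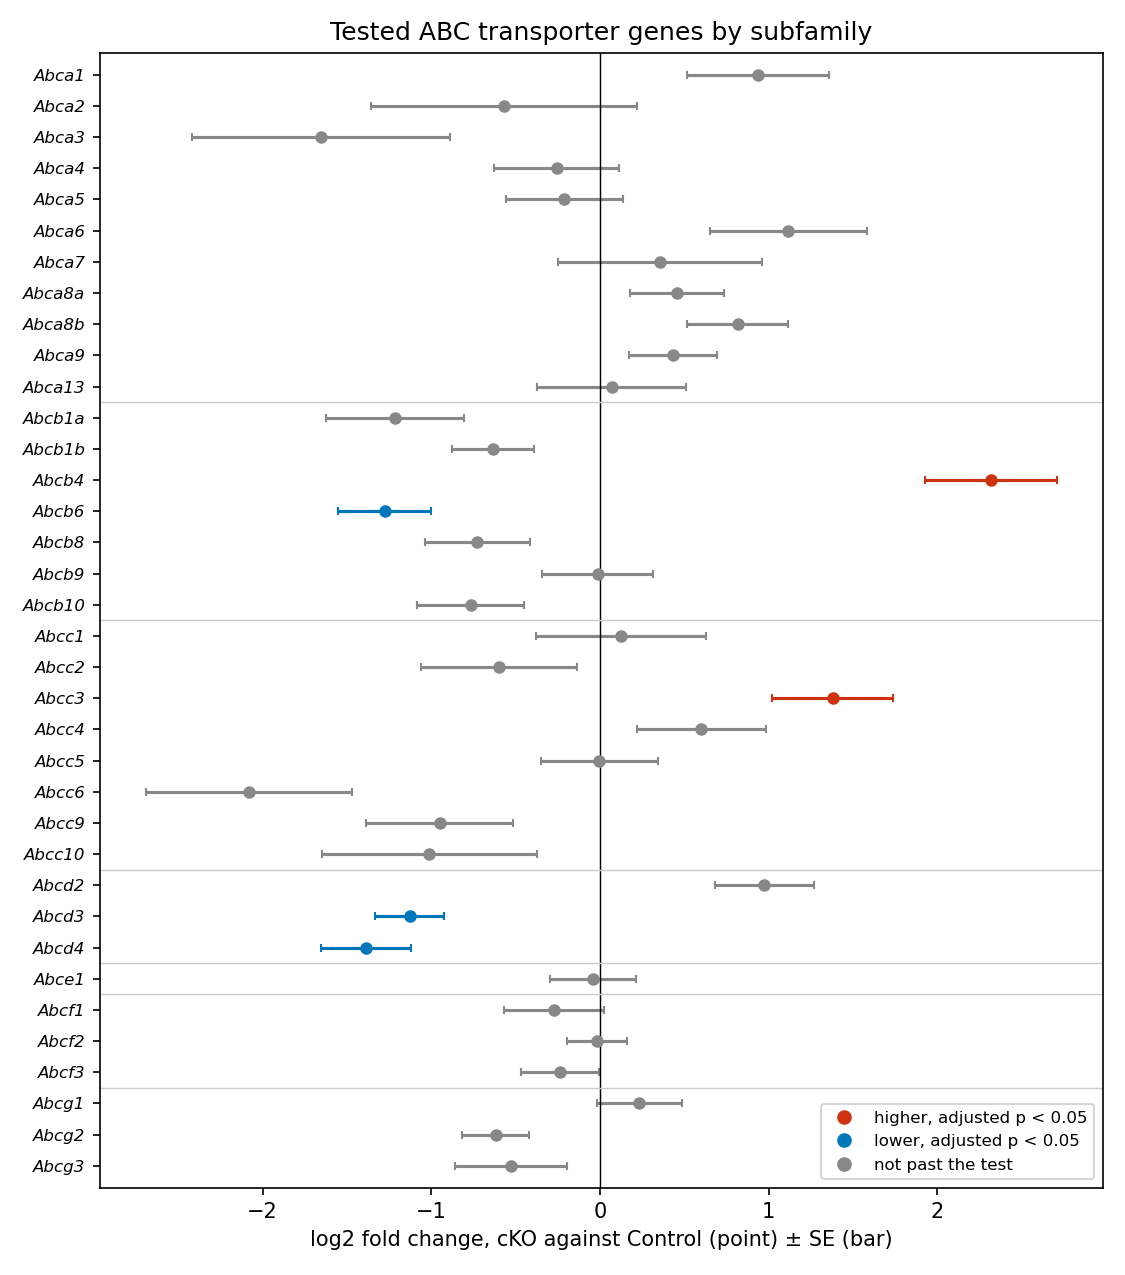
Log2 fold change of 36 tested ABC genes, cKO against Control (points) with the SE (bars), in order of subfamily and number; colour marks the genes past the adjusted p of 0.05 in either direction. The 5 coloured points lie between -1.39 (Abcd4) and 2.32 (Abcb4), and the widest bars belong to genes in which C11 stood apart, such as Abca2 and Abca3.

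The Abcd subfamily holds the peroxisomal importers of fatty acyl chains. Abcd3, which brings branched-chain and bile-acid precursor acyl chains into peroxisomes (GRCm38 chr3:121758774-121815302, minus strand), measured 447, 451, 476 and 433 CPM in Control libraries C10, C11, C13 and C14, and 174, 242, 238 and 175 CPM in cKO libraries KO16, KO18, KO19 and KO20. The lowest Control library stood far above the highest cKO library, and the Control libraries spread little. Abcd3 fell 2.18-fold (log2 fold change -1.13, SE 0.20, adjusted p = 0.00697). It passed in 17 of 18 alternatives and missed with library totals alone (-0.77, adjusted p = 0.0615). Abcd2, an importer of very-long-chain fatty acyl groups, did not pass. It measured 0.386, 0.521, 0.435 and 0.576 CPM in Control and 0.957, 0.672, 1.12 and 1.05 CPM in cKO libraries. All 4 cKO libraries lay above all 4 Control libraries, at 8 to 13 reads against 18 to 37 reads each, a difference of 0.98 on the log2 scale (SE 0.30, adjusted p = 0.0582). Control library C10, at 8 reads, lay below the minimum count of 10, and all 4 cKO libraries lay above it. The filter was thus met by the cKO libraries and not by the Control libraries alone, so the passes below are limited by this. Abcd2 passed with library totals alone (1.3, adjusted p = 0.0194), upper-quartile factors (1.11, adjusted p = 0.0373), the length trend removed (1.11, adjusted p = 0.0414) and without KO18 (1.11, adjusted p = 0.0487). It did not pass with no filter on low counts, and was too low to be tested where a mean of 1 CPM was required.

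Abcd4 is the lysosomal member, which works with Lmbrd1 in the release of cobalamin (vitamin B12) into the cytosol. It lies at chr12:84601464-84617413 on the minus strand. Its levels were 27.0, 51.3, 27.1 and 29.2 CPM in Control and 13, 14.6, 12.9 and 10.8 CPM in cKO libraries. C11 stood far above the other 3 Control libraries, and these 3 still lay above all cKO libraries. Abcd4 fell 2.62-fold (log2 fold change -1.39, SE 0.27, adjusted p = 0.00898) and passed in 18 of 18 alternatives, between -1.49 and -1.05. Its partner Lmbrd1 stood at -0.26 on the log2 scale (adjusted p = 0.42).

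Abcb6, a porphyrin transporter of mitochondrial and endolysosomal membranes (chr1:75171717-75180392, minus strand), measured 1.69, 2.17, 1.74 and 1.60 CPM in Control and 0.797, 0.736, 0.909 and 0.506 CPM in cKO libraries. The groups did not overlap, at 35 to 54 reads per Control library and 12 to 30 per cKO library. Abcb6 fell 2.42-fold (log2 fold change -1.28, SE 0.28, adjusted p = 0.015). The call was lost without C13 (adjusted p = 0.0512), without KO20 (adjusted p = 0.0544) and with library totals alone (-0.94, adjusted p = 0.0643). Gm29253, an annotated transcript on the same strand, covers 2932 of its 5315 exonic bases and was listed with 0 reads in all 8 libraries, so how reads of the shared bases were assigned bears on the level of Abcb6.

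Abcb4, the phosphatidylcholine floppase of the bile canaliculus (chr5:8893717-8959231, plus strand), measured 0.0965, 0.361, 0.391 and 0.266 CPM in Control and 1.49, 1.63, 1.52 and 1.05 CPM in cKO libraries. The lowest cKO library lay well above the highest Control library. Abcb4 rose 4.99-fold (log2 fold change 2.32, SE 0.39, adjusted p = 0.00519) from 2 to 9 reads per Control library to between 25 and 51 reads, so its level stayed low in both groups. All 4 Control libraries lay below the minimum count of 10 and all 4 cKO libraries above it, so Abcb4 entered the test only through the group in which it was higher. With no filter on low counts it stood at 2.28 (adjusted p = 0.00643). It passed in 17 of 17 alternatives that tested it, between 2.04 and 2.65, and was too low to be tested where a mean of 1 CPM was required.

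Abcc3, a basolateral exporter of organic anions and conjugated bile acids (chr11:94343295-94392997, minus strand), measured 0.916, 1.93, 1.70 and 1.60 CPM in Control and 6.11, 3.62, 4.06 and 2.28 CPM in cKO libraries. The groups did not overlap, and KO16 and KO20 held the highest and the lowest cKO value. Abcc3 rose 2.60-fold (log2 fold change 1.38, SE 0.36, adjusted p = 0.0321). Its call was lost without C10 (adjusted p = 0.0853), C13 (adjusted p = 0.0872), C14 (adjusted p = 0.0918) or KO19 (adjusted p = 0.0648), with the log2 fold change between 1.11 and 1.67 over all 18 alternatives.

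**Figure D3:**
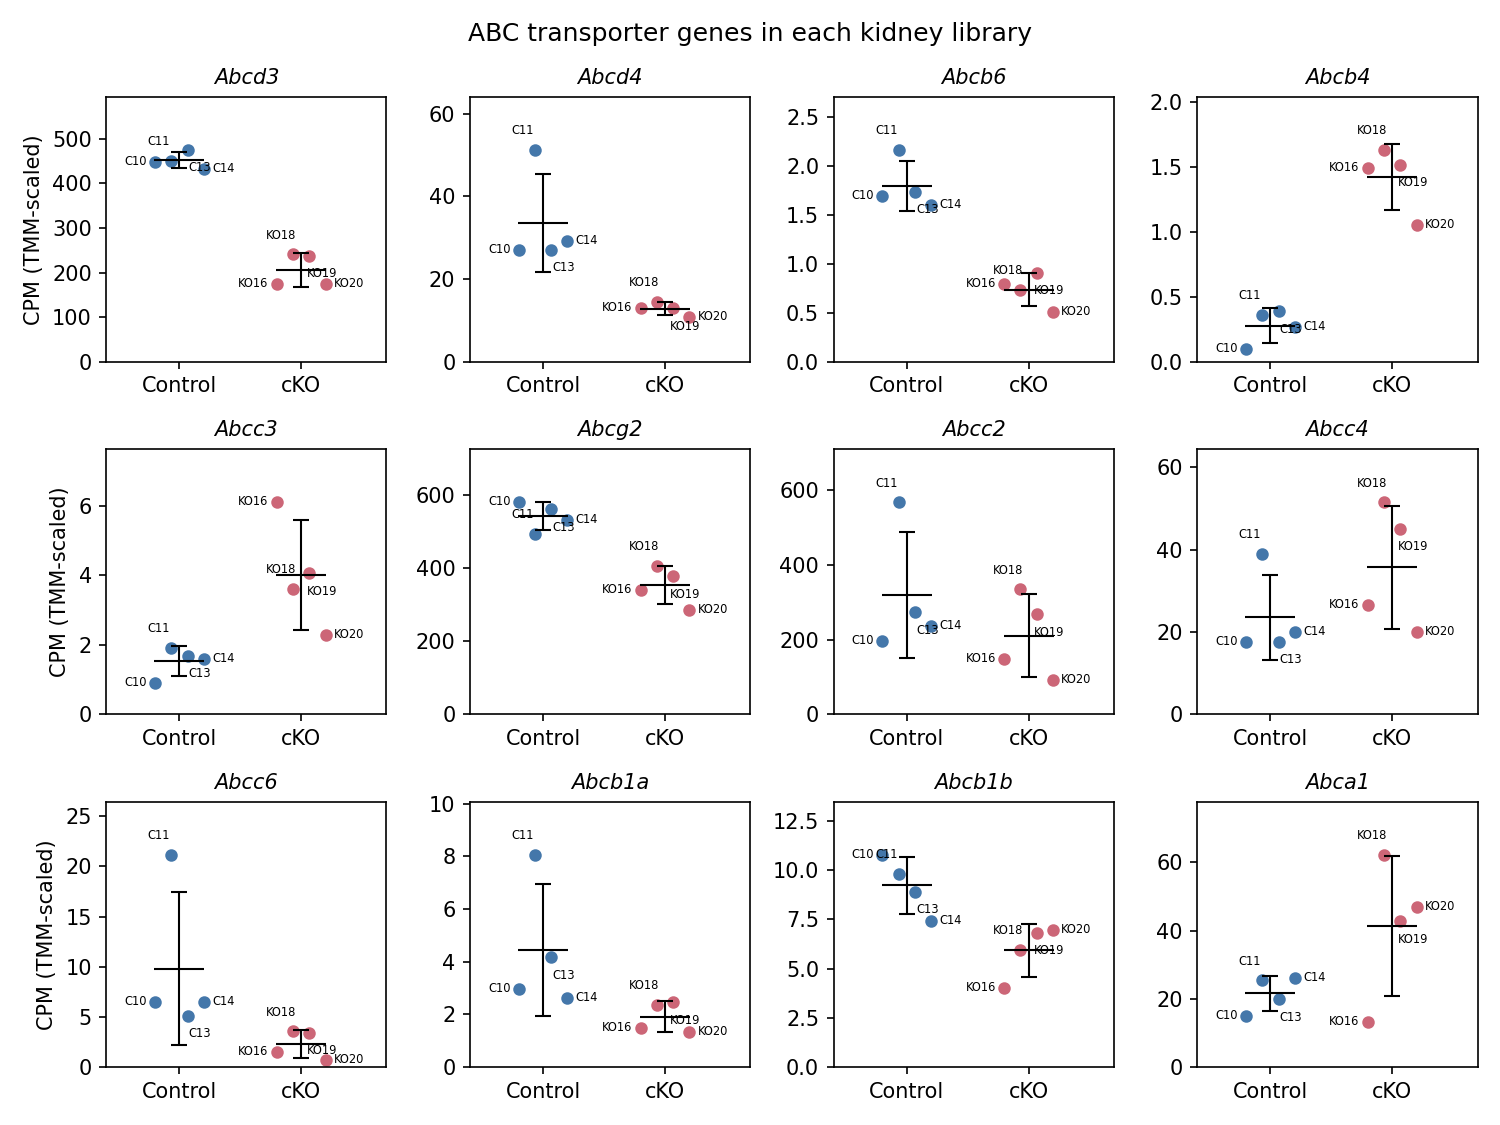
CPM of 12 ABC genes in each library, with the mean (wide bar) and SD (whiskers) of 4 Control (blue) and 4 cKO (red) libraries; each axis starts at 0. For Abcd3, Abcd4, Abcb6, Abcb4 and Abcc3 the groups do not overlap, and neither do they for Abcg2, Abcc6, Abcb1a and Abcb1b, which did not pass the test. For Abcc2, Abcc4 and Abca1 they overlap, and C11 or KO16 stands apart in several panels.

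The promoter windows of the changed genes are shown to let their sequence be read beside these values. They are the 250 bases before the annotated start, on the gene's strand, from RefSeq on GRCm38.p6. RefSeq windows were matched for 38 of the 50 members, among them Abcb4 (chr5:8893471-8893720), Abcb6 (chr1:75180393-75180642) and Abcd3 (upstream start, chr3:121815303-121815552) of the 5 changed genes. Capitals mark matches, on either strand, to the nuclear receptor half-site AGGTCA, the GC box GGGCGG, the CCAAT box, the TATA box TATAAA, the antioxidant response core TGACNNNGC and the E-box CACGTG, and neighbouring matches can overlap. The direct repeat of the half-site with a spacer of 1 base was searched as well.
Abcb4: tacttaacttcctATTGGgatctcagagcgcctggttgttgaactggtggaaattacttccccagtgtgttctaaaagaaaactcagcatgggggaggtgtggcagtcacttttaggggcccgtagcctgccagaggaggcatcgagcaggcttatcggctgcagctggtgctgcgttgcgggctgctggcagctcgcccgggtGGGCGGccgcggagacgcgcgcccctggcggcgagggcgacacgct
Abcb6: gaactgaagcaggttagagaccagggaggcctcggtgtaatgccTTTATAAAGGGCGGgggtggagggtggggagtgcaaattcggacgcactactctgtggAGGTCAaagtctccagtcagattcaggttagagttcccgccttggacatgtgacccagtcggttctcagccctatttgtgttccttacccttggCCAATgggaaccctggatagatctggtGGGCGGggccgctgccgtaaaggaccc
Abcd3: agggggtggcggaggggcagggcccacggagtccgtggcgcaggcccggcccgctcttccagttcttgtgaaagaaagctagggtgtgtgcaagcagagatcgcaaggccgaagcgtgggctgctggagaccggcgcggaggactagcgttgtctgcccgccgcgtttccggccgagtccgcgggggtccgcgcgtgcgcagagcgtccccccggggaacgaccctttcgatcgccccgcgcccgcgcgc
The Abcb4 window held a GC box and a CCAAT match and 61.6% G and C. The Abcb6 window held a half-site, 2 GC boxes, a CCAAT match and overlapping TATA box matches on both strands. None of these motifs matched in the Abcd3 window, which was 72.0% G and C. Of all 32851 promoter windows of this length, 32.7% held a GC box, 33.8% a CCAAT match, 14% a half-site, 12.4% a TATA box, 10.2% an antioxidant response core, 6.02% an E-box and 0.0335% the direct repeat. A match describes the letters of the window only.

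Among the efflux pumps of drugs and organic anions, none passed edgeR's test apart from Abcc3. Abcg2 (chr6:58584523-58695676, plus strand) measured 580, 493, 561 and 532 CPM in Control and 341, 407, 377 and 286 CPM in cKO libraries. Every cKO library lay below every Control library. The difference was 1.54-fold lower (log2 fold change -0.62, SE 0.20, adjusted p = 0.07). Abcg2 passed in DESeq2 (-0.61, adjusted p = 0.00402), without KO16 (-0.60, adjusted p = 0.0482) and without KO16, KO20 and C11 (-0.55, adjusted p = 0.00152), and stood at -0.27 with library totals alone (adjusted p = 0.456). Abcc2 measured 197, 569, 274 and 238 CPM in Control and 148, 336, 269 and 92.4 CPM in cKO libraries. The groups overlapped, C11 was the highest of all 8 libraries, and the log2 fold change was -0.60 (SE 0.46, adjusted p = 0.461), or -0.17 without C11. Abcc4, an apical exporter of cyclic nucleotides, urate and prostaglandins, measured 17.6, 39.0, 17.6 and 20.0 CPM in Control and 26.6, 51.5, 45.0 and 19.9 CPM in cKO libraries. Its groups overlapped only through C11 and KO20, and the log2 fold change was 0.60 (SE 0.38, adjusted p = 0.356). Without KO16, KO20 and C11 Abcc4 stood at 1.35 (adjusted p = 1.4e-05). That fit leaves out the libraries through which its groups overlapped, so their separation there was set by this choice. In the same fit 57.8% of all tested genes passed.

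Mice carry a pair of genes for P-glycoprotein, the multidrug pump, next to Abcb4 on chromosome 5. Abcb1a (chr5:8660077-8748575, plus strand) measured 2.94, 8.06, 4.17 and 2.62 CPM in Control and 1.49, 2.37, 2.45 and 1.31 CPM in cKO libraries. Abcb1b (chr5:8798147-8866315, plus strand) measured 10.8, 9.83, 8.91 and 7.40 CPM in Control and 4.04, 5.95, 6.82 and 6.96 CPM in cKO libraries. In neither gene did the groups overlap, and the cKO libraries were the lower ones. The log2 fold changes were -1.22 for Abcb1a (SE 0.41, adjusted p = 0.0836) and -0.63 for Abcb1b (SE 0.24, adjusted p = 0.125). DESeq2 called both (adjusted p = 0.0271 and 0.0385), Abcb1a passed with the length trend removed (-1.11, adjusted p = 0.0425), and Abcb1b passed without KO16, KO20 and C11 (-0.54, adjusted p = 0.0264), where Abcb1a stood at -0.47 (adjusted p = 0.111). Thus the 3 neighbouring genes did not share a direction, with Abcb4 the only member of the trio that passed edgeR's test.

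Because these 3 genes are close copies, a stretch of 90 coding bases is shown in which Abcb1a (coding bases 1357 to 1446) and Abcb1b (1366 to 1455) are identical. Capitals in Abcb4 (1366 to 1455) mark its 20 mismatches to Abcb1a.
Abcb1a: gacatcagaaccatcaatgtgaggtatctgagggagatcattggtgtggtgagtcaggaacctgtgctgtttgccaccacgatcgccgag
Abcb1b: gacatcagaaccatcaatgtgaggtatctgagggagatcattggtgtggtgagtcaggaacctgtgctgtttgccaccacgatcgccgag
Abcb4: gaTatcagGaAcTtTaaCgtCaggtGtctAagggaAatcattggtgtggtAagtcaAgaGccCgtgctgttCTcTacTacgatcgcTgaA
Over the whole coding sequence, Abcb1a and Abcb1b were identical at 88.0% of 3819 aligned bases, with a longest identical run of 338 bases. Abcb4 was identical to Abcb1a at 75.6% and to Abcb1b at 74.0%. Of all 50-base stretches in the annotated transcripts, 17.6% of Abcb1a, 11.6% of Abcb1b and 2.83% of Abcb4 also occurred in another gene. The read length is not given in the labels, so how many reads of Abcb1a and Abcb1b could not be placed uniquely is not known, and their counts are uncertain.

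Abcc6, whose protein mediates the release of ATP that yields the mineralization inhibitor pyrophosphate (chr7:45967555-46030302, minus strand), had the most negative log2 fold change of the tested members. It measured 6.51, 21.2, 5.13 and 6.43 CPM in Control and 1.49, 3.55, 3.42 and 0.717 CPM in cKO libraries. C11 stood far above the other Control libraries, KO20 and KO16 were lowest, and the groups did not overlap. The log2 fold change of -2.08 (SE 0.61) missed the threshold (adjusted p = 0.0522). It passed with RLE factors (-2.09, adjusted p = 0.0488), with no filter (-2.12, adjusted p = 0.039), with the length trend removed (-1.98, adjusted p = 0.022) and in DESeq2 (-2.09, adjusted p = 0.0038). It stood at -1.38 without C11 (adjusted p = 0.117). Without KO16, KO20 and C11 the size came down to -0.82, with an adjusted p of 0.00281.

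The other Abcc members did not pass. Abcc9, the sulfonylurea receptor subunit of vascular potassium channels, stood at -0.95 on the log2 scale (adjusted p = 0.201). Abcc10 stood at -1.01 (adjusted p = 0.352), Abcc1, a basolateral exporter of glutathione conjugates, at 0.13 (adjusted p = 0.905), and Abcc5, an exporter of cyclic nucleotides, at 0.00 (adjusted p = 0.996). C11 was more than 1.5 times any other Control library in Abcc1, Abcc5, Abcc9 and Abcc10. Without KO16, KO20 and C11, Abcc1 (1.23), Abcc5 (0.64) and Abcc10 (0.47) were all higher and past the threshold, so the direction of Abcc10 turned.

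Of the sterol exporters, Abca1, which loads cholesterol and phospholipid onto apolipoprotein A-I, measured 15.1, 25.4, 19.9 and 26.1 CPM in Control and 13.1, 62.3, 42.8 and 46.9 CPM in cKO libraries. KO18, KO19 and KO20 lay above every Control library and KO16 lay below every Control library. The log2 fold change was 0.94 (SE 0.42, adjusted p = 0.19). Without KO16 it was 1.23 and passed (adjusted p = 0.0123), as it did with the length trend removed (1.04, adjusted p = 0.03) and without KO16 and KO20 (1.28, adjusted p = 0.0217). Abcg1, which delivers cholesterol to high-density lipoprotein, measured 2.94, 5.21, 4.65 and 4.97 CPM in Control and 3.99, 5.98, 5.64 and 5.27 CPM in cKO libraries. The groups overlapped and the log2 fold change was 0.23 (SE 0.25, adjusted p = 0.613).

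Abca5, Abca6, Abca8a, Abca8b and Abca9 form a cluster on the minus strand of chromosome 11, from Abca8b (chr11:109932190-109995845) to Abca5 (chr11:110269369-110337716). Abca8b measured 2.32, 3.45, 2.87 and 2.75 CPM in Control and 2.71, 6.56, 5.03 and 5.74 CPM in cKO libraries. Abca6 measured 1.06, 0.762, 1.09 and 1.60 CPM in Control and 0.744, 3.33, 3.61 and 2.03 CPM in cKO libraries. In both genes KO16 lay within or below the Control range and the other 3 cKO libraries above it. Their log2 fold changes were 0.82 (adjusted p = 0.11) and 1.12 (adjusted p = 0.159), and those of Abca8a and Abca9 were 0.46 (adjusted p = 0.335) and 0.43 (adjusted p = 0.333). Abca5 differed from these 4 in sign with all 8 libraries, at -0.21 (adjusted p = 0.754). This sign was not stable: it turned in 4 of 18 alternatives, which ran from -0.52 to 0.19. Abca6 passed without KO16 (1.41, adjusted p = 0.0211), Abca8b with the length trend removed (0.95, adjusted p = 0.0133) and in DESeq2 (0.82, adjusted p = 0.037), and Abca9 with the length trend removed (0.56, adjusted p = 0.0335).

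In several of the remaining tested Abca genes C11 stood far above the other Control libraries. Abca3 measured 113, 906, 150 and 177 CPM in Control and 64.1, 167, 163 and 32.8 CPM in cKO libraries. Its log2 fold change of -1.65 (SE 0.76, adjusted p = 0.203) shrank to -0.46 without C11 and stood at 0.13 without KO16, KO20 and C11. Abca2, a lipid transporter of late endosomes and lysosomes, measured 12.8, 118, 19.7 and 17.5 CPM in Control and 16.3, 44.7, 43.9 and 8.39 CPM in cKO libraries. Its log2 fold change was -0.57 (adjusted p = 0.701), and 1.37 without KO16, KO20 and C11 (adjusted p = 8.88e-05). Abca4, the retinoid flippase known from photoreceptors, Abca7, a phospholipid transporter, and Abca13 stood at -0.26, 0.36 and 0.07, with adjusted p-values from 0.717 to 0.942.

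**Figure D4:**
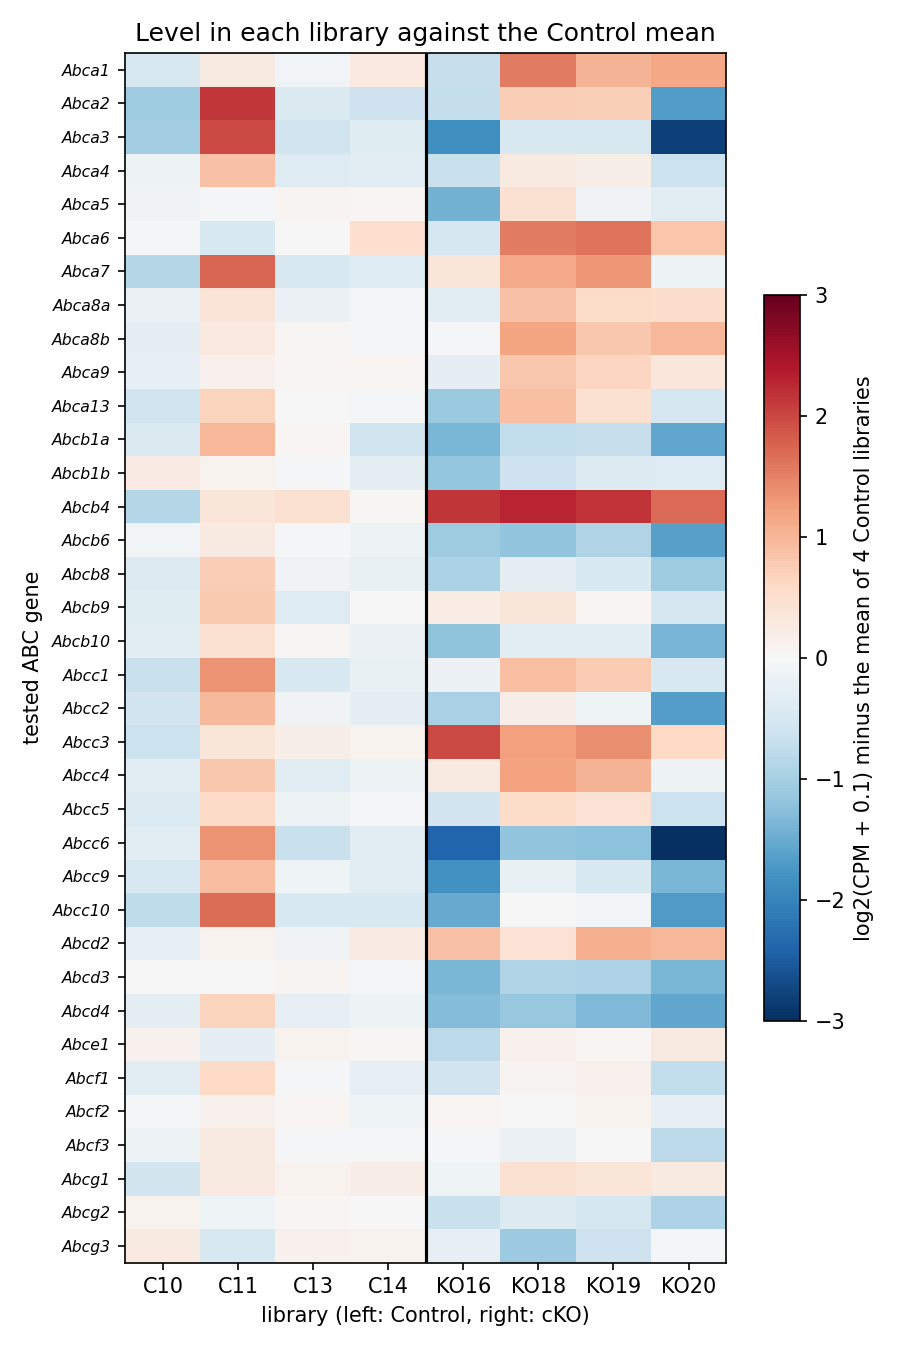
Level of 36 tested ABC genes in each library, as log2(CPM + 0.1) minus the mean of the 4 Control libraries (colour, blue lower and red higher; a black line parts Control from cKO). Abcd3, Abcd4 and Abcb6 are blue and Abcb4 and Abcc3 red in all 4 cKO libraries, whereas many other genes share their colour with C11, KO18 and KO19 or with KO16 and KO20.

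The ribosomal members and the inner mitochondrial Abcb8 and Abcb10 did not pass edgeR's test. Abce1, which splits ribosomes after termination, measured 140, 105, 137 and 129 CPM in Control and 73.3, 139, 132 and 153 CPM in cKO libraries. KO16 lay below all others, and the log2 fold change was -0.04 (SE 0.25, adjusted p = 0.943). Abcf1, Abcf2 and Abcf3, which are tied to translation, stood at -0.27, -0.02 and -0.24, with adjusted p-values from 0.567 to 0.965. Abcb8 and Abcb10, inner-membrane proteins linked to iron and heme, stood at -0.73 (adjusted p = 0.17) and -0.77 (adjusted p = 0.154). Abcb9, a lysosomal peptide transporter, was at -0.01, and Abcg3 at -0.53 (adjusted p = 0.351).

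The filter left out 12 of the 50 members. Abca12, Abca15 and Abcb5 had 0 reads in all 8 libraries, and 0 among all assigned reads of the 8 libraries allows up to 3 reads, or 0.0153 CPM. Counting error alone is covered by this limit. Abcb11, the bile salt export pump, had 1 read in each group, Abca16 had 0 and 2, and Abcc12 had 2 and 3. Abca14 (30 reads over the 4 Control and 37 over the 4 cKO libraries), Abca17 (22 and 19) and Abcc8 (15 and 14) were low in both groups. Of the intestinal and biliary sterol exporter, Abcg5 had 13 and 21 reads and Abcg8 had 21 and 3. The brain sterol transporter Abcg4 had 12 and 35 reads.

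Removing a length trend from each library, or leaving out the libraries with the strongest lean, changed the count of calls more than any scaling did. With the length trend removed, 6 members were higher and 5 lower, where 19.3% of all tested genes passed. Without KO16, KO20 and C11, which leaves 3 Control and 2 cKO libraries, 16 of 39 tested members were higher and 7 lower, where 57.8% of all tested genes passed, so this share too is near its background. All 5 members called with 8 libraries were kept in both fits. Members higher in the smaller fit included Abca7 (1.77, adjusted p = 1.89e-05), Abca1 (1.33, adjusted p = 0.000619) and Abca13 (0.86, adjusted p = 0.00263). The count of 16 includes Abcg4, which was not tested with 8 libraries and passed the filter here only through the cKO libraries, at 12 and 15 reads against 1, 1 and 3. Lower members included Abcg3 (-1.14, adjusted p = 0.00745). The libraries left out were chosen with their lean known, and 2 cKO libraries give little measure of the spread within the cKO group.

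**Figure D5:**
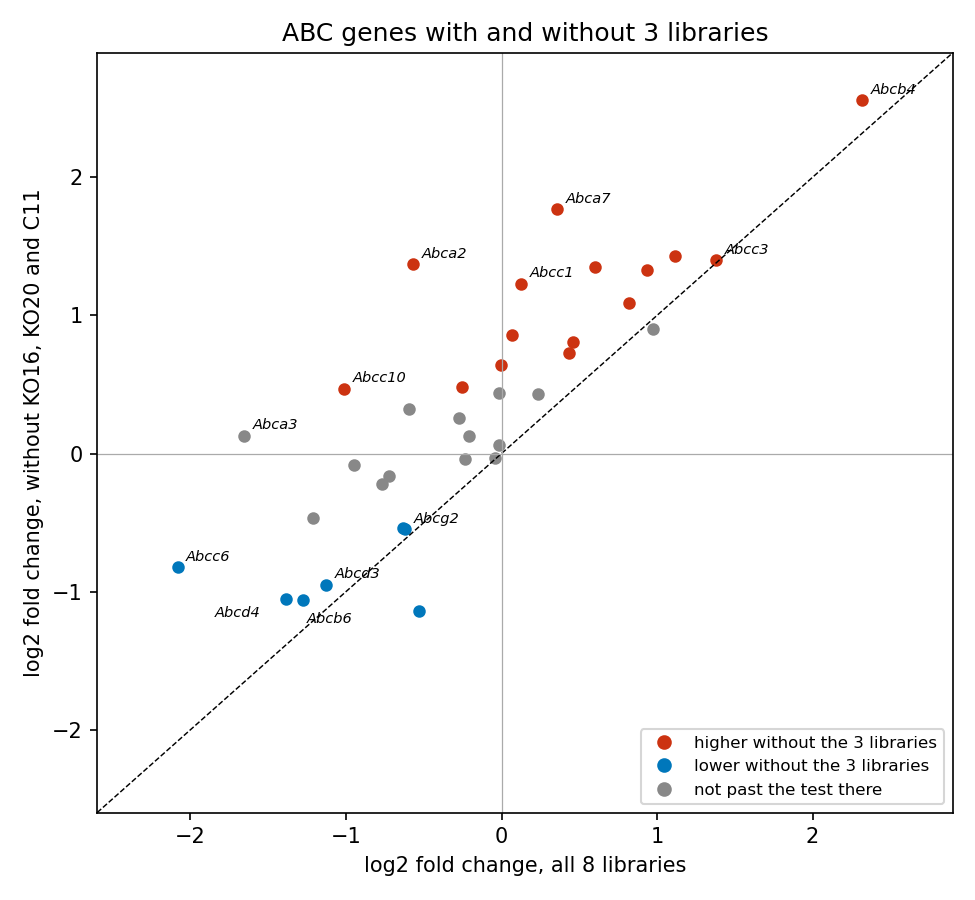
Log2 fold change of 36 ABC genes without KO16, KO20 and C11 (vertical) against that with all 8 libraries (horizontal); the dashed line marks equal values and colour the adjusted p under 0.05 in the smaller fit. Abcb4, Abcc3, Abcd3, Abcd4 and Abcb6 lie near the line, whereas Abca2, Abca3, Abca7, Abcc1, Abcc6 and Abcc10 lie more than 1 above it.

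Genes that work with ABC transporters were counted in the same fit, in which 14.1% of all tested genes passed, and nothing particular to a list is read from its count. Of 3 ABC genes with other names, Cftr, a chloride channel, rose, and Tap1 and Tap2, peptide transporters of antigen presentation, did not pass. Cftr measured 9.41, 10.7, 8.82 and 6.29 CPM in Control and 12.7, 27.8, 25.7 and 17.4 CPM in cKO libraries (log2 fold change 1.25, SE 0.30, adjusted p = 0.0235), with every cKO library above every Control library. A list of 11 renal carriers of drugs and organic ions held uptake carriers, the apical exporters Slc47a1 and Slc47a2 and the apical urate exchanger Slc22a12. Of these 11, 8 fell, 0 rose and 3 did not pass (median log2 fold change -1.60), and the lower ones included the uptake carriers Slco1a1 (-3.54) and Slc22a8 (-5.90), Slc22a12 (-2.10) and Slc47a1 (-0.99). DESeq2 called 1 of these carriers higher and 8 lower. Of 18 tested regulators of ABC genes, the xenobiotic receptor Ahr rose (1.07, adjusted p = 0.0357, but 0.0515 in limma-voom, and with KO16 inside the Control range), and Nr1h4, the bile acid receptor (-1.24, adjusted p = 0.00607), Ppara, the fatty acid receptor (-1.97, adjusted p = 0.019), and Hnf4a, a factor of the proximal tubule program (-1.55, adjusted p = 0.0363), fell, with 14 not past the test (median -0.35). Of 17 tested partners of ABC proteins, 2 fell and 15 did not pass (median -0.18): Pdzk1, an apical scaffold (-0.99, adjusted p = 0.0174), and Fech, the last enzyme of heme synthesis (-0.81, adjusted p = 0.0219). DESeq2 called 1 of these partners higher and 2 lower. Pex19, which inserts peroxisomal membrane proteins, stood at -0.46 (adjusted p = 0.135). Of 11 tested genes of sterol handling, Pltp, a phospholipid transfer protein, rose (0.99, adjusted p = 0.0322), 3 fell, among them Lpl (-2.25) and Cyp7b1 (-2.06), and 7 did not pass (median -0.22). DESeq2 called 1 of these sterol genes higher and 4 lower.

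Cell type markers were counted in the same fit. Markers of the kidney tubule were abundant in every library, with those of the thick ascending limb summing to 3580 to 4140 CPM in Control and 3680 to 5100 CPM in cKO libraries. Of 9 proximal tubule markers 7 fell (median log2 fold change -1.81), and their summed level ran from 6990 to 13800 CPM in Control and from 1580 to 3050 CPM in cKO libraries. Of 7 macrophage markers 6 rose (91.8 to 112 CPM against 197 to 474 CPM), of 4 fibroblast markers 2 rose (95.7 to 132 CPM against 220 to 341 CPM), and of 6 collecting duct markers 1 rose and 1 fell. Of 4 hepatocyte markers 2 fell (15.4 to 24.9 CPM against 3.79 to 13.8 CPM), and of 6 T and B cell markers 1 rose (4.43 to 6.95 CPM against 4.36 to 11.1 CPM), a call that limma-voom did not make. No marker of the thick ascending limb (4), distal convoluted tubule (3), podocyte (4), endothelium (6), pericyte and smooth muscle (6), neutrophil (2 tested of 4) or adrenal gland (1 tested of 4) passed edgeR's test. Of these, 1 podocyte, 2 endothelial and 1 pericyte or smooth muscle marker had an unadjusted p under 0.05, DESeq2 called 1 podocyte and 2 endothelial markers, and limma-voom called 0. Mpo of neutrophils and Cyp11b2 of the adrenal gland were at 0 in every library. In whole kidneys, fewer cells of a type and less RNA per cell cannot be told apart, and the part of these shifts in the levels of the ABC genes was not tested.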

How the data were processed

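The deposited values were raw counts of reads per Ensembl gene, per the file headers and the whole numbers. Per the submitters' processing notes, cutadapt 1.3, STAR 2.4.0g and HTSeq 0.6.1 were used with build GRCm38; these notes name neither annotation release nor strand setting, which leaves antisense and overlapping genes uncertain. Libraries were stranded mRNA, per the labels' protocols. Lines that name no gene (39.7% to 56.2% of a file's total) were left out. Most of this was alignments that were not unique, at 33.7% of the total in C11, 49.8% in KO16 and 53.4% in KO20. The other libraries held 37.6% (KO19) to 43.3% (C10 and C14). The part of this in the length lean was not tested. GENCODE vM21 gave symbols and exonic lengths (46005 of 46517 identifiers matched).

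Counts of all 8 libraries were fitted without covariates in edgeR 4.0.16 (R 4.3.3): TMM factors, filterByExpr (minimum count 10, minimum total 15), quasi-likelihood F test, and Benjamini-Hochberg adjustment over 15382 genes at 0.05. The SE comes from the F statistic, and CPM are TMM-scaled. The common biological coefficient of variation was 0.386. On simulated data of 15382 genes for this comparison, 140 of 200 genes changed 4-fold were called, 0 in the wrong direction, and 4 unchanged genes were called. The simulated libraries carried no length lean and none that stood apart, so these counts do not measure the error under the lean of the real libraries. No replicate libraries were identical; the closest pair differed by a chi-square of 8.01 per degree of freedom. Alternatives were RLE, upper-quartile and no factors, DESeq2 1.42.0, limma-voom 3.58.1, 2 other filters, per-library lowess offsets on log2 exonic length (span 0.3), and libraries left out.

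The members, the other gene lists and the libraries left out were chosen with earlier results of these data known. By a set rule, values in every library were given for each member past the threshold and for Abcb1a, Abcb1b, Abcc2, Abcc4, Abcg2, Abca1, Abcg1, Abcc6, Abcd3 and Abce1. Of each other list, up to 3 genes past the threshold were named by smallest p, with fold changes. Per-library values of Abcd2, Abca2, Abca3, Abca6 and Abca8b, and the names Hnf4a, Slc47a1, Lmbrd1 and Pex19, were added after their values were seen. Some genes are counted in the totals but not reported here.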

Additional observations from a re-analysis of the deposited data

Results flagged for a closer look

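In 12 of 76 groups of 4 libraries (38 tested members, Control and cKO), 1 library stood apart from the other 3 by Dixon's gap over range, against about 5% by chance; the members are not independent, since they share these libraries. In 10 of them it was Control library C11 above the rest: Abca2 (118 CPM, next 19.7), Abca3 (906 CPM, next 177), Abca4 (13.4 CPM, next 6.46), Abca7 (21.5 CPM, next 4.83), Abcc1 (28.3 CPM, next 9.62), Abcc4 (39 CPM, next 20.0), Abcc6 (21.2 CPM, next 6.51), Abcc9 (29 CPM, next 13.9), Abcc10 (28.6 CPM, next 6.52) and Abcd4 (51.3 CPM, next 29.2). Of these genes only Abcd4 passed the test of cKO against Control, and it also passed without C11.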

How the results depend on the processing

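Abcd4 passed in all 18 alternatives, Abcb4 in all 17 that tested it, Abcd3 in 17, Abcb6 in 15 and Abcc3 in 14 of 18, each with 1 sign throughout. The members called higher (2 with all libraries) numbered 1 with a mean of at least 1 CPM required, 6 with the length trend removed, 6 without KO16 and KO20 (16.6% of all genes) and 16 without KO16, KO20 and C11. Those called lower (3) numbered 1 with library totals alone, 7 in DESeq2 (where 20.6% of all genes passed, against 14.1%), 5 with the length trend removed and 7 without KO16, KO20 and C11. With each library left out in turn, 1 to 5 were higher and 2 to 4 lower, where 7.02% (without C13) to 17.2% (without KO16) of all genes passed. Without KO16, KO20 and C11, Abca2 (1.37), Abca4 (0.48), Abcc5 (0.64, from just below 0) and Abcc10 (0.47) had the opposite sign to that with 8 libraries and passed; the cause was not tested. Library totals alone moved the median difference over all genes (log2) from 0.01 to 0.34, upper-quartile factors to 0.14, and the share of higher among all called genes from 53.2% to 81.2% and 63.9%. Abcb4, Abcb6 and Abcd2 rest on few reads. No paired analysis was possible because the libraries' own names share no number between groups and the labels give no pairing.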
